A study of Mus musculus with 3 samples.

Results

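Pttg1, Espl1, Esco2 and Nipbl encode regulators of sister chromatid cohesion: securin, separase, a cohesin acetyltransferase and the cohesin loader. They were followed in mouse metaphase II oocytes through every transcript of these symbols in the table, which gave 7 of its 9126 transcripts. The 3 libraries were aged-sec oocytes, from aged mice and matured with hUC-MSC-sec, medium holding what mesenchymal stem cells of human umbilical cord secrete, at 1:1; aged oocytes, matured without it; and young oocytes, also without it. The groups follow the sample titles and the study's design text, because hUC-MSC-sec is entered as the treatment of all 3 samples. The oocytes came from ICR mice and were collected at the germinal vesicle stage. They were matured in M16 medium for 16 to 18 h, and 20 of them from 4 mice were pooled for each library; the sources used here do not give the ages of the mice. Each group thus had 1 library with no replicate, so no value below has a replicate error or a test, and every difference is one between pooled libraries.

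Cohesin is a protein ring that holds sister chromatids together from DNA replication until they separate. In oocytes the rings are put in place before birth and must last until ovulation, and loss of cohesion with maternal age is a known source of wrong chromosome numbers in eggs. At metaphase II the remaining cohesion sits near the centromeres, and separase is held inactive by securin and by cyclin B with Cdk1 until fertilization triggers the anaphase-promoting complex to destroy these inhibitors.

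The values are TPM, transcript abundances that are scaled for transcript length and set to a total of 1000000 per library. The lowest aged over young ratio in the table was 1.2 and no listed value was 0, so the aged library exceeds the young one for each listed transcript because of how the rows were chosen. Such a choice can pick up aged values that chance made high and so draw the aged-sec over aged ratio below 1. How far it did so here was not tested. The median of the aged-sec over aged ratio over the table was 0.818, and that of the aged over young ratio was 1.71. Median-of-ratios scaling, an alternative that brings the libraries to nearly equal medians over the listed transcripts, moved the median log2 ratio by −0.49 in aged over young, 0.19 in aged-sec over aged and −0.31 in aged-sec over young. These log2 ratios have 0.5 TPM added to both values, which damps the shift at low TPM. Abundant transcripts moved further: in aged over young, Esco2 went from 0.33 to −0.46 and the higher Pttg1 transcript from 0.48 to −0.31. Where the scaling turned a direction or ended a call for the transcripts of Pttg1, Espl1, Esco2 and Nipbl, this is said beside the value or in the section on processing. Scaled ratios of other single genes are not given, so their directions hold for TPM as deposited. The table held 32.1% of all TPM of the aged-sec library, 32.5% of the aged library and 22.9% of the young library, and the sequencing depth is unknown. TPM are shares of a fixed total, so more of a transcript and less of all other mRNA in an oocyte cannot be told apart. Of 14 oocyte markers 4 were listed, namely Bmp15, Gdf9, Oog1 and Zp2. Through the transcript of each with the highest mean TPM, they summed to 2430 TPM in aged-sec, 2359 TPM in aged and 1523 TPM in young oocytes. The aged-sec over aged ratios of these transcripts were 0.978 for Bmp15, 0.655 for Gdf9, 1.07 for Oog1 and 0.522 for Zp2. A further Oog1 transcript, left out of the sum, stood at 397 TPM in aged-sec, 474 TPM in aged and 337 TPM in young oocytes (aged-sec over aged ratio 0.837). Nothing is therefore read from the order of the aged-sec and aged sums. Of 14 markers of cumulus and granulosa cells only Fshr, the receptor for follicle-stimulating hormone, was listed. It stood at 0.22 TPM in aged-sec, 0.55 TPM in aged and 0.03 TPM in young oocytes, and its part in the values below was not tested. The other markers were not analysed here.

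The annotation bears on what each value covers. For Esco2 the RefSeq annotation of GRCm38.p6 has 1 mRNA, and it was listed, so its row stands for the whole annotated gene. For Pttg1 2 of 5 annotated mRNAs were listed, for Espl1 2 of 5, and for Nipbl 2 of 7. The remaining variants of these 3 genes were not analysed here, so their listed TPM are not gene totals. Variants of a gene share most of their sequence, and the quantification can divide reads among them, so values of single variants are uncertain. No annotated gene overlaps Pttg1, Esco2 or Nipbl in GENCODE M21, while a processed pseudogene on the opposite strand overlaps Espl1 by 142 bases, and whether the quantification used strand is not stated.

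The cDNA was made with SMART-Seq2, which primes on poly(A) tails, and stored oocyte mRNAs change their tails during maturation. The 3′ ends of the members are therefore shown, as 30 bases around the signal for cleavage and polyadenylation, which is in capitals. They are read 5′ to 3′ on the mRNA strand from GENCODE M21 transcripts on GRCm38. The Pttg1 site lies at chr11:43420271-43420300 on the minus strand and occurs in all 3 curated Pttg1 transcripts examined. The Espl1 site lies at chr15:102324324-102324353 on the plus strand, the Esco2 site at chr14:65819039-65819068 on the minus strand, and the Nipbl site at chr15:8290626-8290655 on the minus strand.
Pttg1: gtatgttgtattAATAAAgcatttgtgcat
Espl1: taatgtgaccttAATAAAgatattccaagc
Esco2: tttaagtgttttATTAAAagttttactagc
Nipbl: agcgaatactgcAATAAAtttttttacttc
Pttg1, Espl1 and Nipbl carried AATAAA and Esco2 carried ATTAAA. Within the last 100 bases of 28609 RefSeq-matched protein-coding transcripts, searched on the mRNA strand, AATAAA was present in 59.4% and ATTAAA in 18.9%. The same windows were searched for TTTTAT and TTTTAAT, forms of the cytoplasmic polyadenylation element of oocyte mRNAs, of which either was present in 16.5%. The Esco2 window held both, starting 23 and 60 bases before its end, and the first overlaps the ATTAAA shown. No window of Pttg1, Espl1 or Nipbl held either. Other forms of the element were not searched, so its absence from these windows is not shown. The Espl1 site belongs to the transcript matched to NM_001014976, which was not listed. The window of the Espl1 transcript matched to the listed NM_001356312 held neither AATAAA nor ATTAAA. The listed Pttg1 and Nipbl transcripts are predicted ones, so the sites shown for these genes come from their curated transcripts.

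**Figure D1:**
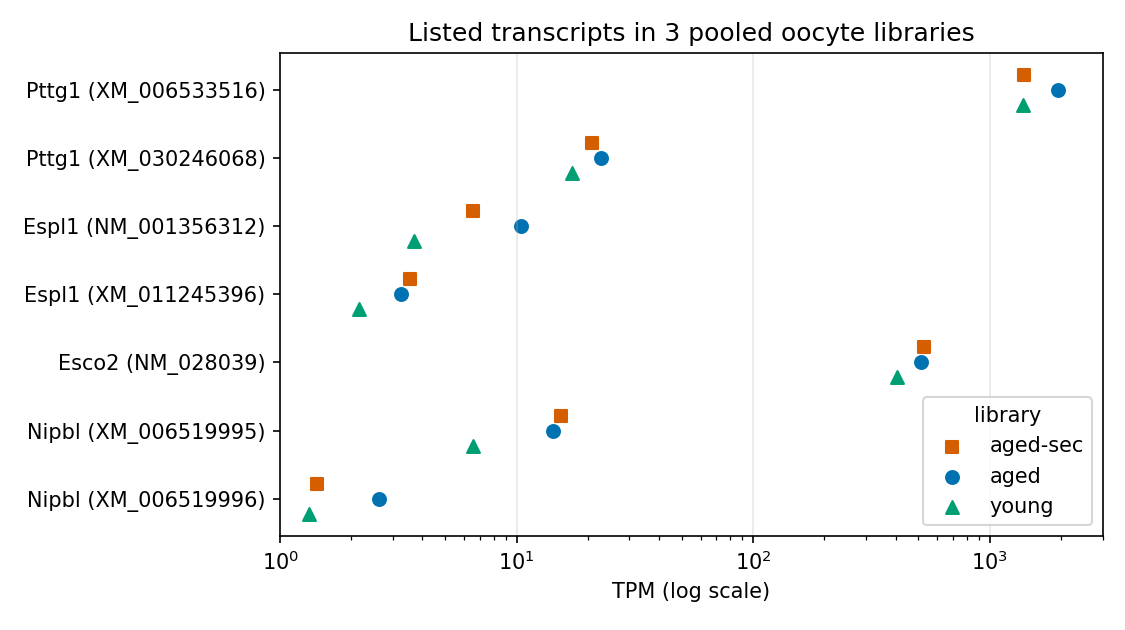
TPM (log scale) of the 7 listed transcripts of Pttg1, Espl1, Esco2 and Nipbl as deposited in the aged-sec (squares), aged (circles) and young (triangles) libraries, each of which is 1 pool of oocytes. The higher Pttg1 transcript stood at 1392 TPM in aged-sec and 1388 TPM in young oocytes, against 1943 TPM in aged ones, while Esco2 and the higher Nipbl transcript were about as high in aged-sec as in aged oocytes.

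Securin, the Pttg1 product, binds separase and keeps it from cutting cohesin. Its higher listed transcript (XM_006533516) stood at 1392 TPM in aged-sec, 1943 TPM in aged and 1388 TPM in young oocytes. The aged library was the high one, and the aged-sec and young libraries differed by 3.89 TPM, a ratio of 1.003. This order holds for TPM as deposited: with median-of-ratios scaling young was the highest, with log2 ratios of −0.50 for aged-sec over young and −0.31 for aged over young. The aged over young ratio was 1.40 and the aged-sec over aged ratio 0.717. The lower transcript (XM_030246068) stood at 20.9 TPM in aged-sec, 22.8 TPM in aged and 17.2 TPM in young oocytes. It lay closer to aged than to young in the aged-sec library, with ratios of 0.917 to aged and 1.22 to young, and both log2 ratios changed sign with the scaling, to 0.16 and −0.21. Its share of listed Pttg1 TPM was small, since the higher transcript held 98.5% in aged-sec, 98.8% in aged and 98.8% in young oocytes.

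The higher Pttg1 transcript was among the most abundant of the table, at place 31 from the top in aged-sec, 26 in aged and 27 in young oocytes. Of the 40 transcripts at 1000 TPM or more in aged oocytes, it had the lowest aged-sec over aged ratio. The median ratio of these 40 was 1.02, their interquartile range was 0.925 to 1.10, and 22 of them were above the aged value in aged-sec oocytes. The next lowest was Rbbp7, a histone-binding protein of chromatin complexes, at 2022 TPM in aged-sec, 2820 TPM in aged and 2001 TPM in young oocytes, also a ratio of 0.717. Pttg1 remained at the lowest place when the abundant transcripts were those at 1000 TPM or more in young oocytes (30 transcripts), in aged-sec oocytes (39) or in the mean of the libraries (36). These sets overlap and are cut from the same libraries at the same threshold, so the repeats are no independent support. Of all listed transcripts 37.9% had a lower ratio than Pttg1, and these were transcripts of lower abundance, where ratios spread more widely. In aged over young, 31 of the same 40 transcripts had a lower ratio than Pttg1, and their median was 1.30 against 1.40. In aged-sec over young 1 of the 40 had a lower ratio, and the median was 1.38 against 1.003 for Pttg1. The level classes were chosen after the data were seen.

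**Figure D2:**
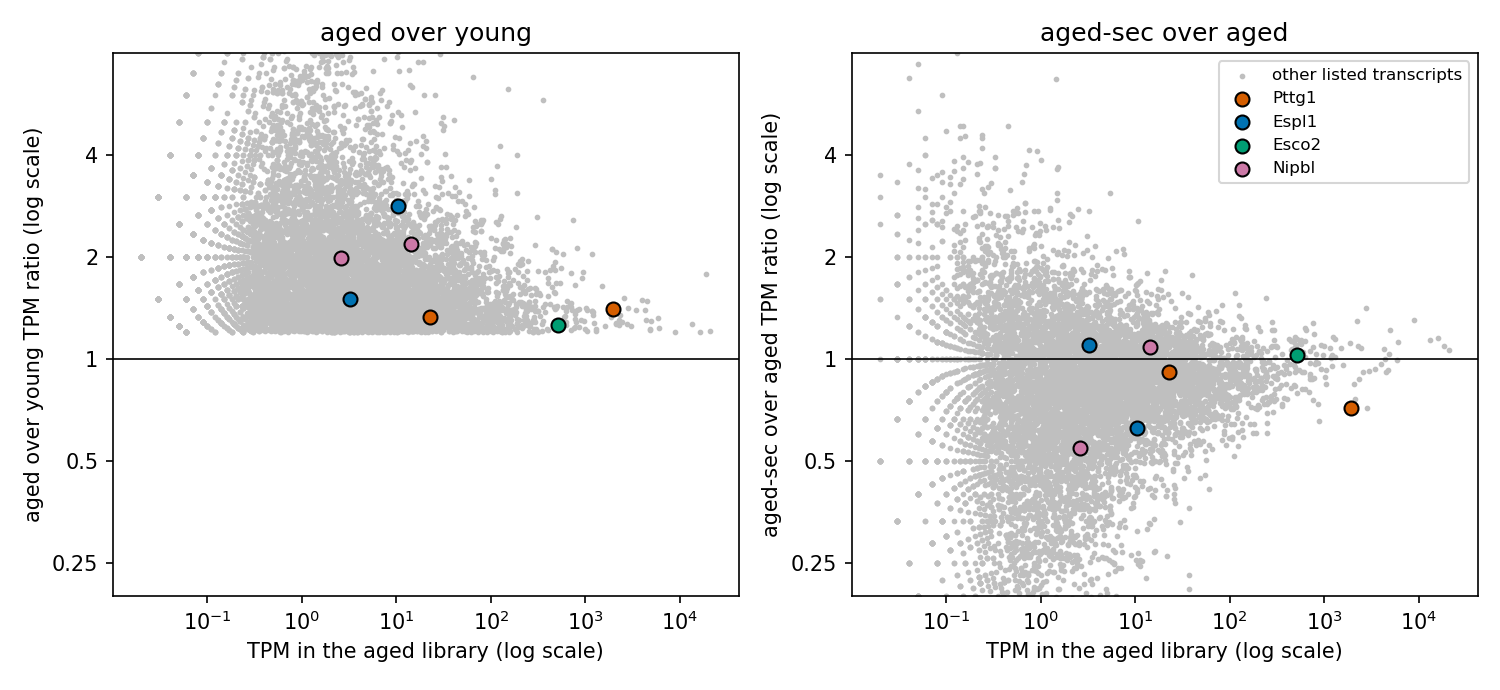
Ratio of TPM in aged over young (left) and aged-sec over aged (right) libraries on the y axis (log scale) against TPM in the aged library (log scale), with the 7 transcripts coloured by gene and the other listed transcripts in grey; 265 transcripts on the left and 354 on the right lie beyond the y axis. The ratios spread widely at low TPM and narrowly at high TPM. Among transcripts at 1000 TPM or more in aged oocytes, Pttg1 at 0.717 lies lowest on the right, level with Rbbp7, also at 0.717. The left panel is empty under 1.2 because of how the rows were chosen.

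Separase, the Espl1 product, is the protease that cuts the kleisin subunit of cohesin at anaphase. The curated transcript NM_001356312 stood at 6.51 TPM in aged-sec, 10.4 TPM in aged and 3.68 TPM in young oocytes. The aged-sec value lay between the other two, 3.89 TPM under aged and 2.83 TPM over young. Its aged over young ratio of 2.83 was the largest of the 7 transcripts, and 81.8% of the table's transcripts had a lower one. Its aged-sec over aged ratio was 0.626. The predicted transcript XM_011245396 stood at 3.55 TPM in aged-sec, 3.24 TPM in aged and 2.16 TPM in young oocytes. It was slightly higher in aged-sec than in aged oocytes, and its aged over young log2 ratio became −0.17 with the scaling. In aged-sec over aged, the variants of Espl1 thus differed in opposite directions. Listed Espl1 summed to 10.1 TPM in aged-sec, 13.6 TPM in aged and 5.84 TPM in young oocytes, and the curated transcript held 64.7% of it in aged-sec, 76.2% in aged and 63.0% in young oocytes.

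Listed Pttg1 exceeded listed Espl1 in TPM by 140-fold in aged-sec, 144-fold in aged and 241-fold in young oocytes. Aged-sec and aged oocytes were thus close in this ratio and both below young. No scaling of whole libraries alters a ratio within a library, but the choice of rows can. Of each gene 3 of 5 annotated mRNAs were not listed, and each listed one was at 1.2 or more in aged over young. How far this choice made the difference from young was not tested. These ratios rest on listed variants and on mRNA, and the protein was not measured.

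Esco2 acetylates the Smc3 subunit of cohesin during replication, which makes cohesion stable. Its transcript NM_028039 stood at 529 TPM in aged-sec, 514 TPM in aged and 407 TPM in young oocytes. The aged-sec and aged libraries were close, with a ratio of 1.03, and both were above young, by a ratio of 1.30 for aged-sec and 1.26 for aged. With median-of-ratios scaling both were below young, with log2 ratios of −0.12 for aged-sec over young and −0.46 for aged over young. The aged over young ratio was low for the table, with 9.03% of transcripts lower. Of the 327 transcripts from 100 up to 1000 TPM in aged oocytes, 61 (18.7%) had a lower aged over young ratio than Esco2, and the median of the 327 was 1.42. In aged-sec over aged 242 (74.0%) of them had a lower ratio, and the median of the 327 was 0.914. Esco2 had 4.74 times the TPM of Esco1, the other cohesin acetyltransferase gene, in aged-sec, 4.15 times in aged and 3.98 times in young oocytes.

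Nipbl forms with Mau2 the complex that loads cohesin onto chromatin. The higher Nipbl transcript (XM_006519995) stood at 15.4 TPM in aged-sec, 14.2 TPM in aged and 6.52 TPM in young oocytes. Both libraries of aged mice were more than 2-fold above young, with a ratio of 2.37 for aged-sec and 2.18 for aged, and aged-sec was 1.09 times aged. The lower transcript (XM_006519996) stood at 1.43 TPM in aged-sec, 2.62 TPM in aged and 1.32 TPM in young oocytes. It was near the young value in aged-sec oocytes as deposited, and its aged-sec over young log2 ratio became −0.29 with the scaling. Summed, listed Nipbl was at 16.9 TPM in aged-sec, 16.8 TPM in aged and 7.84 TPM in young oocytes, and the higher transcript held 91.5% of it in aged-sec, 84.4% in aged and 83.2% in young oocytes.

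A size rule was used to set these ratios beside the rest of the table. With 0.5 TPM added to both values, it asks for a log2 ratio of 1 or more, or −1 or less, and for 10 TPM or more in whichever library of the pair was higher. In aged over young, 5 of the 7 transcripts had enough TPM and 2 were higher under the rule, against 18.2% of 2186 transcripts of the table. They were Espl1 NM_001356312 (log2 ratio 1.38) and Nipbl XM_006519995 (1.07), and nothing is read from this count because the table was chosen on the same ratio. Both calls were lost with median-of-ratios scaling, at 0.65 and 0.32. In aged-sec over aged, none of the 5 transcripts with enough TPM met the rule in either direction, against 0.223% higher and 2.95% lower among 2239. Their log2 ratios ran from −0.64 for Espl1 NM_001356312 to 0.12 for Nipbl XM_006519995, with −0.48 for the higher Pttg1 transcript. In aged-sec over young, Nipbl XM_006519995 was the single higher transcript of 4 with enough TPM (log2 ratio 1.18), against 17.1% higher and 0.45% lower among 1999. That call was lost with the scaling, at 0.71. The comparisons share libraries, so their values for the same transcript are not independent.

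The genes that act with these 4 were taken from 6 lists of 55 genes, of which 27 were listed, each through its transcript with the highest mean TPM. The 28 others, among them the ring genes Smc1a, Smc1b, Smc3, Rad21 and Rec8, were not analysed here. In aged over young none of the 10 with enough TPM met the size rule, against 15.9% higher of 1759 genes of the table with enough TPM. The median log2 ratio of the 27 was 0.59, against 0.47 over all 6104 genes, and it became −0.03 with the scaling. In aged-sec over aged 1 of 11 with enough TPM was lower under the rule and none was higher, against 2.18% lower and 0.168% higher of 1789 genes. Of the 27 genes 21 (77.8%) were below the aged value and 6 above it, and their median log2 ratio was −0.25. Over all genes 72.5% were below and the median was −0.20. The lists therefore lay close to the table in both respects.

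Of 9 ring genes 4 were listed, with each transcript under 4 TPM. They were Stag1, Stag2 and Stag3, subunits that bind the kleisin, and Rad21l, a meiotic kleisin. Stag2 had 3 listed transcripts, which summed to 5.21 TPM in aged-sec, 7.94 TPM in aged and 3.83 TPM in young oocytes. The highest by mean (XM_011250987) stood at 2.96 TPM in aged-sec, 2.88 TPM in aged and 1.74 TPM in young oocytes. The other two had lower aged-sec over aged ratios, 0.543 for NM_021465 and 0.299 for NM_001290713. Rad21l was listed at 0.01 TPM in aged-sec, 3.19 TPM in aged and 0.41 TPM in young oocytes, where 0.01 is the smallest step of the table and a ratio to it is set by rounding.

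Of 8 partners in loading and acetylation 4 were listed. Esco1 stood at 112 TPM in aged-sec, 124 TPM in aged and 102 TPM in young oocytes. Cdca5, which encodes sororin, a protein that protects acetylated cohesin from release, stood at 75.6 TPM in aged-sec, 96.5 TPM in aged and 51.2 TPM in young oocytes. The remaining listed ones, Mau2 and the cohesin deacetylase gene Hdac8, stayed under 4 TPM. For cohesin release, Pds5a and Pds5b of 3 genes were listed, both under 2 TPM.

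Centromeric protection, by which shugoshin and protein phosphatase 2A shield cohesin from separase, had 6 of 13 genes listed. Sgo1, a shugoshin gene, stood at 25.1 TPM in aged-sec, 26.5 TPM in aged and 21.7 TPM in young oocytes. Ppp2ca, a catalytic subunit of the phosphatase, stood at 11.8 TPM in aged-sec, 11.4 TPM in aged and 5.68 TPM in young oocytes. Neither met the size rule in any pair.

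The Ccnb1 product with Cdk1 holds separase inactive beside securin. Of 4 genes of cyclin B and Cdk1 3 were listed. Ccnb1 stood at 1754 TPM in aged-sec, 2083 TPM in aged and 1643 TPM in young oocytes. On TPM as deposited, the order of the libraries was the same as for Pttg1, with a smaller gap between aged-sec and aged (ratio 0.842). Over all genes of the table, aged-sec was below aged in 72.5% and above young in 4613 of 6104. Nothing is therefore read from the shared order. Ccnb3, for which that role is not claimed here, stood at 18.0 TPM in aged-sec, 18.2 TPM in aged and 11.7 TPM in young oocytes. Cdk1 stood at 10.2 TPM in aged-sec, 7.64 TPM in aged and 3.66 TPM in young oocytes, and it was higher in aged-sec than in young oocytes under the size rule (log2 ratio 1.36), a call that was lost with median-of-ratios scaling.

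Of 18 genes of the anaphase-promoting complex and its activators, which mark securin and cyclin B for destruction, 8 were listed. Cdc27 (NM_001285989), a subunit of the complex, stood at 8.58 TPM in aged-sec, 37.3 TPM in aged and 25.3 TPM in young oocytes. Under the size rule aged-sec was lower than aged (log2 ratio −2.06) and lower than young (−1.51). Its other listed variant (XM_006533051) stood at 1.01 TPM in aged-sec, 2.08 TPM in aged and 0.77 TPM in young oocytes. Anapc4, another subunit, stood at 40.9 TPM in aged-sec, 48.7 TPM in aged and 32.1 TPM in young oocytes.

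**Figure D3:**
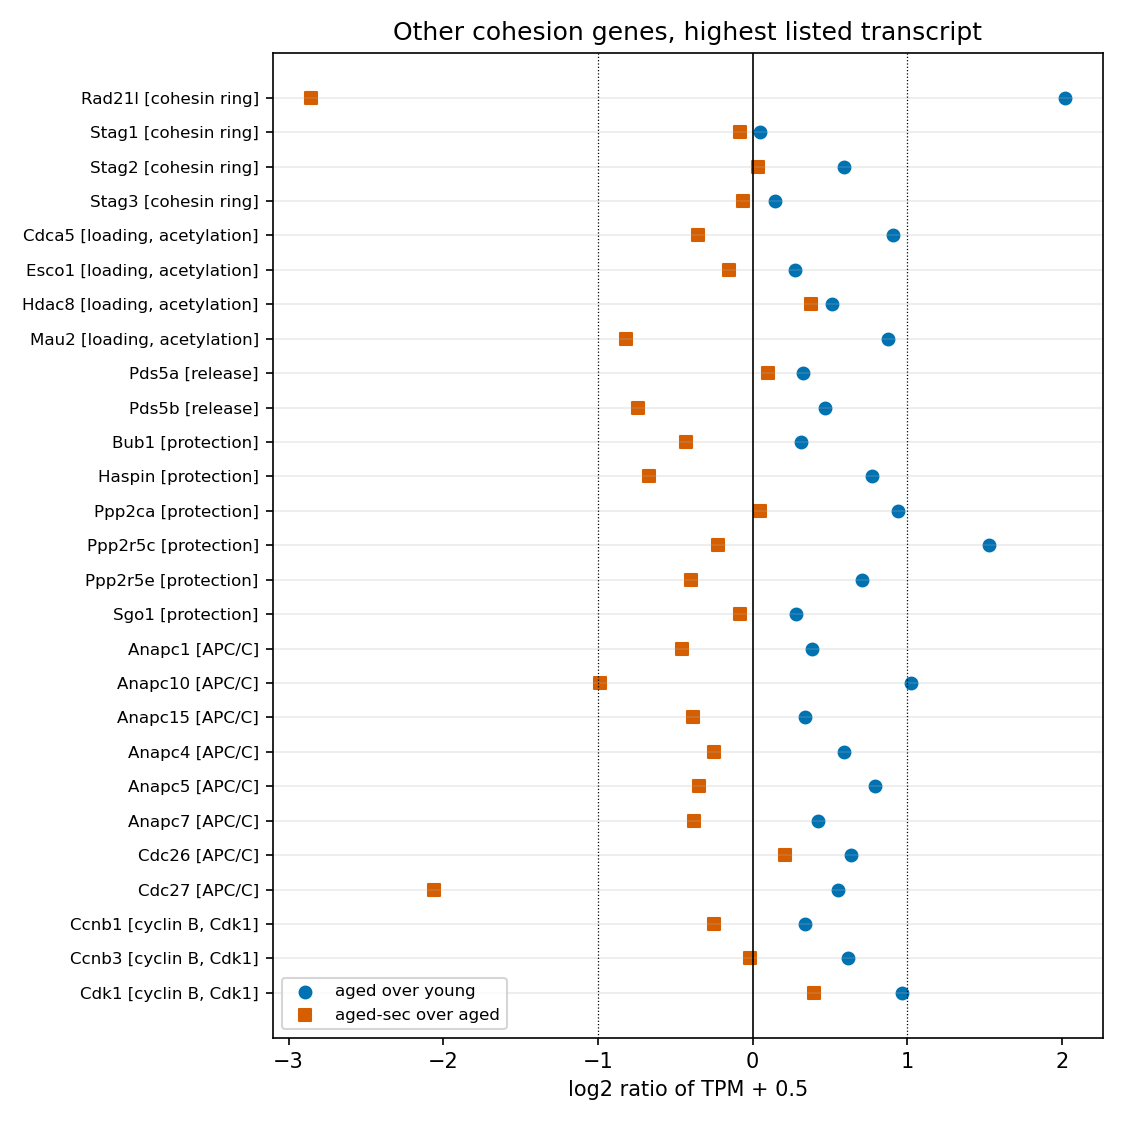
Log2 ratio of TPM + 0.5 (x axis) of the 27 listed genes that act with securin, separase, Esco2 and Nipbl, by list, for aged over young (circles) and aged-sec over aged (squares) libraries; dotted lines mark a log2 ratio of 1 in size. All circles lie above 0 because of how the rows were chosen, 21 of 27 squares lie below 0, and Cdc27 (−2.06) is the 1 gene with enough TPM beyond a dotted line; Rad21l, Ppp2r5c and Anapc10 beyond a line are under 10 TPM.

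The genes whose pattern was most like each member were sought among 1721 genes at 10 TPM or more, as the smallest distance between the pairs of log2 ratios for aged over young and aged-sec over aged, over 3 libraries. For Pttg1 they were U2af1l4, a splicing factor gene (distance 0.0067), Rbbp7 (0.0102) and Dlgap5, a spindle protein gene (0.0126). Dlgap5 stood at 40.1 TPM in aged-sec, 56.3 TPM in aged and 40.5 TPM in young oocytes. For Esco2 they were Fbxw13, an F-box gene, Foxn2, a forkhead factor gene, and Ppih, a cyclophilin of the spliceosome, all within 0.0067. Ppih was also near Esco2 in level, at 580 TPM in aged-sec, 561 TPM in aged and 446 TPM in young oocytes. For Nipbl they were Lrrc69, Dnajb14 and Polb, a repair polymerase gene, within 0.0289. For Espl1 they were Ippk, an inositol phosphate kinase gene, Rapgef5 and Ice2, within 0.052. With 3 libraries 2 ratios fix the whole pattern, so many genes lie close.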

How the data were processed

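Poly(A) cDNA of 3 pooled oocyte libraries was made with SMART-Seq2 and transposon-based library construction and sequenced on the DNBSEQ platform, per the labels' protocols and the design text. The authors deposited TPM of RefSeq transcripts, per the file headers, and 2 ratio columns, aged over young and aged-sec over aged, which equal the quotient of the TPM within 6.6e-07. Which quantification program and genome build were used is not stated in these sources. Depth is unknown, so no counting interval was given.

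TPM were used as deposited, with a pseudocount of 0.5 TPM on log2 ratios; plain ratios have none. With 1 library per group no test was made, and how often the size rule errs between single libraries was not tested. Members and lists were chosen with earlier results of these data known. Named genes were all listed rows of the 4 members, list genes under the size rule, the 2 highest of each list by mean TPM, and the 3 most alike per member. Stag1, Stag3, Mau2, Hdac8, Accsl, Cks2 and Obox7 were named after their values were seen. All 7 accessions matched RefSeq of GRCm38.p6, used for the number of mRNAs, and GENCODE M21 gave the 3′ ends. Protein motifs were not searched. Python 3.11.15, pandas 2.3.3, numpy 2.4.6 and matplotlib 3.10.9 were used. Alternatives were other pseudocounts, no minimum, median-of-ratios scaling, variants summed per gene and curated transcripts only.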

Additional observations from a re-analysis of the deposited data

How the results depend on the processing

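Precision is limited by 1 library per group. No paired analysis was possible because each group had 1 library, and none could be left out. Another pseudocount cannot turn a direction, and no minimum or curated transcripts only leave each log2 ratio unchanged. Part of the next count was therefore fixed in advance, and it is no measure of stability. Of 102 values of the 7 transcripts under the alternatives, 90 kept their direction and their side of the size rule. All 12 others came from median-of-ratios scaling, which sets the table's medians to be nearly equal. It moved the median log2 ratio by −0.49 in aged over young, 0.19 in aged-sec over aged and −0.31 in aged-sec over young, and the abundant Pttg1 and Esco2 transcripts further. The table is chosen on the first of these ratios, so that this scaling removes the choice along with any difference. Under it the rule was no longer met by Espl1 NM_001356312 (0.65) and Nipbl XM_006519995 (0.32) in aged over young, or by the same Nipbl transcript in aged-sec over young (0.71). Aged over young became −0.46 for Esco2, −0.31 and −0.38 for the higher and lower Pttg1 transcripts, and −0.17 for Espl1 XM_011245396. Aged-sec over young became −0.50 for Pttg1 XM_006533516, which was 0.004 on the log2 scale as deposited, −0.12 for Esco2, −0.29 for Nipbl XM_006519996 and −0.21 for Pttg1 XM_030246068, whose aged-sec over aged became 0.16. The median of the other cohesion genes became −0.03 in aged over young and −0.15 in aged-sec over young, and 0 of them were higher in the last pair.

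Over the whole table, the transcripts higher in aged over young numbered 398, against 56 with that scaling, 1364 with no minimum and 223 with curated transcripts only. In aged-sec over aged 5 were higher and 66 lower, against 14 and 28 with that scaling, 45 and 521 with no minimum, 2 and 39 with curated transcripts, and 3 and 42 with variants summed; with a pseudocount of 1 TPM 3 were higher. In aged-sec over young 341 were higher and 9 lower, against 84 and 34 with that scaling, 1021 and 76 with no minimum, and 178 and 5 with curated transcripts. Of the other cohesion genes, with no minimum 3 were higher in aged over young, 2 lower in aged-sec over aged and 2 higher in aged-sec over young; with a pseudocount of 0.1 TPM 2 were higher in the last pair. The rest of these counts moved by no more than 1.5 times.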

Other observations

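Among the 40 transcripts at 1000 TPM or more in aged oocytes, those with low aged-sec over aged ratios beside Pttg1 and Rbbp7 included Accsl (1605 TPM in aged-sec, 2101 TPM in aged and 1643 TPM in young oocytes, ratio 0.764) and Ccnb1 (ratio 0.842). On TPM as deposited, the aged-sec over young ratios of these 4 ran from 0.976 to 1.07, against a median of 1.38 for all 40. The 4 were picked for low aged-sec over aged ratios, a pick that also favours low aged-sec over young ratios. At the other end of the aged-sec over aged ratios were Cks2, a Cdk-binding protein (11674 TPM in aged-sec, 8942 TPM in aged and 7430 TPM in young oocytes, ratio 1.31), and Obox7, an oocyte homeobox gene (3930 TPM in aged-sec, 2778 TPM in aged and 2195 TPM in young oocytes, ratio 1.41). These are single libraries, with no error to set beside the ratios.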
